A study of Mus musculus with 16 samples.

Results

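The heparan sulfate 3-O-sulfotransferase genes were followed in the cortex and cerebellum of mice. The members were taken by name, as the 7 genes *Hs3st1*, *Hs3st2*, *Hs3st3a1*, *Hs3st3b1*, *Hs3st4*, *Hs3st5* and *Hs3st6* of the 37583 genes in the deposited tables. All 7 had counts in all 16 libraries. The libraries came from 4 wild-type mice and 4 mice of the Slc39a8 A391T (A393T) mutant genotype, a missense change in a metal ion transporter, all of strain C57BL/6J. Each mouse gave 1 library of cortex and 1 of cerebellum, so 4 libraries stood for each region and genotype. Numbers 1 to 4 name the mice of a genotype, in the order of their numbers in the labels. The wild-type mice were males aged 12 weeks, and neither sex, age nor the number of mutant alleles is given for the A391T mice by the labels.

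Heparan sulfate is a chain of alternating glucosamine and uronic acid sugars that is built on core proteins of the cell surface and matrix, such as syndecans and glypicans. Sulfotransferases of the Golgi apparatus then add sulfate at defined positions, and the pattern they leave sets which growth factors, guidance cues and inhibitors bind the chain. The 3-O-sulfotransferases add the last and rarest of these sulfates, to carbon 3 of glucosamine. Products of *Hs3st1* and *Hs3st5* can bind antithrombin. Products of *Hs3st2*, *Hs3st3a1*, *Hs3st3b1*, *Hs3st4*, *Hs3st5* and *Hs3st6* can bind glycoprotein D of herpes simplex virus. In the nervous system *Hs3st2* and *Hs3st4* are known as neuronal members of the family.

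In the NCBIM37 (mm9) assembly that the counts rest on, *Hs3st1* (ENSMUSG00000051022) lies on the minus strand of chromosome 5 from 40005174 to 40146714. *Hs3st2* (ENSMUSG00000046321) and *Hs3st4* (ENSMUSG00000078591) lie on the plus strand of chromosome 7, from 128535373 to 128645282 and from 131126383 to 131542503, with 2481100 bases between them. *Hs3st3a1* (ENSMUSG00000047759) lies on the plus strand of chromosome 11 from 64248834 to 64336343. *Hs3st3b1* (ENSMUSG00000070407) lies on the minus strand of the same chromosome from 63699294 to 63735792, 513041 bases away. *Hs3st5* (ENSMUSG00000044499) lies on chromosome 10 from 36226620 to 36554203 and *Hs3st6* (ENSMUSG00000039628) on chromosome 17 from 24889933 to 24895628, both on the plus strand. *Hs3st3a1* alone among the 7 had exon bases, 12.2% of them, overlapped by another gene, *F930015N05Rik* on the other strand. The counts were made without regard to strand, so reads of both genes there cannot be told apart. Under the default rule of HTSeq such reads are ambiguous and count for neither gene.

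The coding sequences fell into clear degrees of likeness. *Hs3st3a1* and *Hs3st3b1* were identical at 97.7% of 773 aligned bases, whereas the other 20 pairs ranged from 55.7% to 74.8%. Both genes share an unbroken run of 401 identical coding bases in the second of their 2 exons, at chr11:64333812-64334212 on the plus strand and chr11:63702735-63703135 on the minus strand of NCBIM37. Its 5′ edge is shown because a 50-base read that falls wholly inside the run cannot be placed on one gene. The capitals mark bases inside the identical run and the lower case marks the 30 coding bases before it.
Hs3st3a1, chr11:64333782-64333901, plus strand: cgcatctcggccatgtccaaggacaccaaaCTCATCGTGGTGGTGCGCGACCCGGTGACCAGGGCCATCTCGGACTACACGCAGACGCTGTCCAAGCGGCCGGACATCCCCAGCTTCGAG
Hs3st3b1, chr11:63703046-63703165, minus strand: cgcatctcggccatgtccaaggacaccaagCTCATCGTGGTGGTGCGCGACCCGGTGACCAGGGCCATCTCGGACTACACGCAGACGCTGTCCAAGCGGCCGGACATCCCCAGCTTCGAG
Of all 50-base windows in its exons, 10.7% in *Hs3st3a1* and 8.56% in *Hs3st3b1* occur in the other gene too. Reads with more than 1 best place were not counted, so the counts of these genes come from the remainder of their exons. *Hs3st4* shared 1 such window with *Slc17a8*, and the other 4 members shared none with another gene. Only protein-coding transcripts of GENCODE M1 were searched, and not pseudogenes or the rest of the genome.

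**Figure D1:**
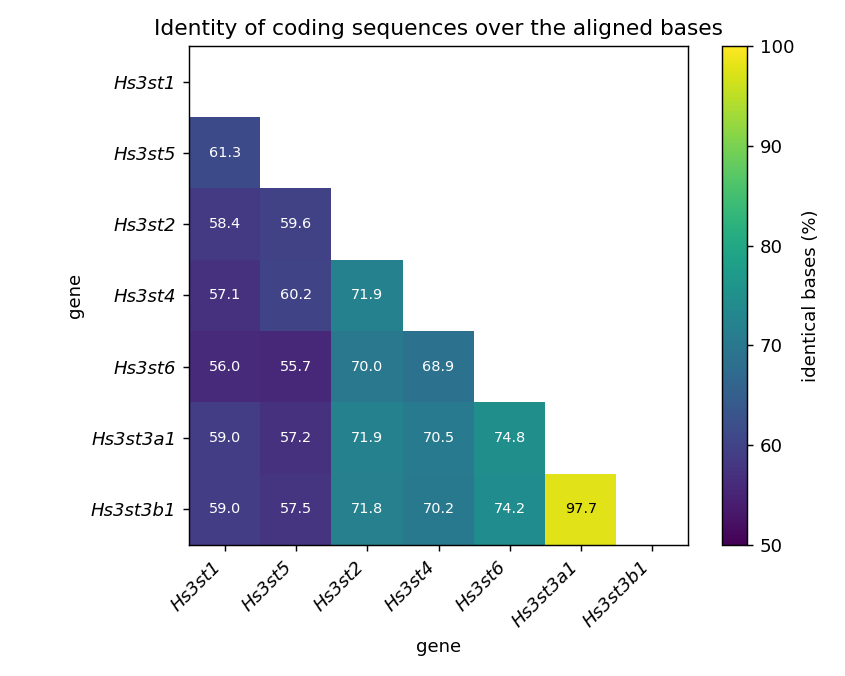
Percent of identical bases over the aligned part of the coding sequences for each of the 21 pairs of genes, with the value printed in each square. *Hs3st3a1* and *Hs3st3b1* stand apart at 97.7%, *Hs3st2*, *Hs3st4*, *Hs3st6* and that pair lie between 68.9% and 74.8% of each other, and pairs with *Hs3st1* or *Hs3st5* lie between 55.7% and 61.3%.

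Promoters are shown for the leading members of each region, *Hs3st4* and *Hs3st2* in cortex and *Hs3st1* in cerebellum, and for *Hs3st3a1*, which matched all of the motifs marked. Each is given as the 250 bases before the RefSeq start of each gene in the GRCm38.p6 assembly, 5′ to 3′ in the direction of the gene. RefSeq promoters were matched by symbol for 6 of the 7 members, all except *Hs3st6*. The capitals mark matches, on either strand, to the cyclic AMP response element TGACGTCA, the E-box CACGTG, the GC box GGGCGG and the CCAAT box. The letters were chosen after the sequences had been seen.
Hs3st4, chr7:123982578-123982827, plus strand: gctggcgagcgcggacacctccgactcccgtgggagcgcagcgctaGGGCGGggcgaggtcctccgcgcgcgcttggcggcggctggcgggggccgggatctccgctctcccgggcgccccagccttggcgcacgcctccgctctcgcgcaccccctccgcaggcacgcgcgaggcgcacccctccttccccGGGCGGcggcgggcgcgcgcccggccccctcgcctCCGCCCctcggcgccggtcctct
Hs3st2, chr7:121392046-121392295, plus strand: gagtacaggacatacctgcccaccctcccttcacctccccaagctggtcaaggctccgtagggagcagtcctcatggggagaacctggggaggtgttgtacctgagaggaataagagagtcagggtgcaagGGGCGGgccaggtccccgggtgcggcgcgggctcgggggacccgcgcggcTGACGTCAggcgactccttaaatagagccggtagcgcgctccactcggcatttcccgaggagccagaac
Hs3st3a1, chr11:64435082-64435331, plus strand: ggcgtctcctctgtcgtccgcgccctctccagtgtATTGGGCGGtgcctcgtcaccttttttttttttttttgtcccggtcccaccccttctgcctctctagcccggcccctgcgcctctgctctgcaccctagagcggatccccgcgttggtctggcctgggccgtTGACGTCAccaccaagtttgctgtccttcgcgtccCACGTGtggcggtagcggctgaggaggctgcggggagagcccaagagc
Hs3st1, chr5:39644632-39644881, minus strand: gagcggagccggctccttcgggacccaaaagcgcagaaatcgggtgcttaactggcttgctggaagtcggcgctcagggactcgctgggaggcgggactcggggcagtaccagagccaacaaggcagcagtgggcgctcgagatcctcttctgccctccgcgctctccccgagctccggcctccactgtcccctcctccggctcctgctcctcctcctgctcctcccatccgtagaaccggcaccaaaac
TGACGTCA was in the promoters of *Hs3st2* and *Hs3st3a1*, 2 of 6 members, and in 1.55% of all 32851 promoters of the table. CACGTG was in *Hs3st3a1* alone and in 6.02% of all promoters. The GC box was in 5 of 6 members, all except *Hs3st1*, and in 32.7% of all promoters. CCAAT was in *Hs3st3a1*, where it overlaps the GC box, in *Hs3st3b1* and in *Hs3st5*, and in 33.9% of all promoters. The E-box CAGCTG (13.0% of all promoters) and the TATA box TATAAA (12.4%) matched no member in this window. The promoter of *Hs3st4* held 43 CpG dinucleotides against 8 to 20 in the other 5 members and a median of 6 over all promoters. These matches are letters in a window and not sites shown to be used.

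The libraries held from 20813432 to 30497206 counts on genes. The main neuron markers of each region followed the labels, and markers of neighbouring regions did so in part. The summed level of the upper-layer cortex markers in the files (*Cux2*, *Rasgrf2*, *Rorb*) was 119 to 168 TPM in the 8 cortex libraries and 23.7 to 35.3 TPM in the 8 cerebellum libraries. TPM divides counts by gene length and scales each library to the same total, so that genes can be compared with each other. The 6 granule cell markers summed to 24.7 to 43.9 TPM in cortex and 1596 to 2049 TPM in cerebellum. The 7 layer 6 markers summed to 246 to 366 TPM in cortex and 77.1 to 101.3 TPM in cerebellum, although 1 of them, *Nxph4*, was higher in cerebellum (log2 2.63 in wild-type and 2.56 in A391T mice). The 5 striatum markers, all called lower in cerebellum in both genotypes, summed to 171 to 277 TPM in 7 cortex libraries, to 54.0 TPM in that of A391T mouse 3 and to 7.82 to 19.6 TPM in cerebellum. In that cortex library *Hs3st4* and *Hs3st2*, at 103 and 77.4 TPM, lay within the range of the other cortex libraries, and *Hs3st1*, at 13.6 TPM, was the lowest of the 8. The 5 hippocampus markers summed to 12.9 to 15.6 TPM in cortex and 23.2 to 32.3 TPM in cerebellum, a sum carried by *Prox1* and *Tdo2*. In wild-type mice these 2 were called higher in cerebellum and *Spink8* and *Lct* lower, with a median log2 fold change of the 5 of -0.30. Among glial markers all 4 of microglia were called lower in cerebellum in both genotypes, with sums of 227 to 273 TPM in cortex and 50.5 to 75.8 TPM in cerebellum, and 2 of 4 of astrocytes were called higher. The part of neighbouring tissue and of glial cells in the region differences was not tested. Choroid plexus markers varied between cerebellum libraries, with 30.3 TPM in wild-type mouse 3, 31.4 TPM in A391T mouse 4 and 2360.5 to 8065 TPM in the other 6. The cerebellum library of A391T mouse 1 stood farthest from its group, as its counts gave 62.3 to 74.5 chi-square units per degree of freedom against the other 3 libraries, beside 7.23 to 8.13 among those 3. The cortex library of wild-type mouse 4 gave 15.1 to 34.4 against the rest of its group, beside 5.10 to 12.0 among the other 3. The cerebellum libraries of wild-type mouse 3 and A391T mouse 3 were highest in 6 genes of the midbrain and thalamus that were chosen after the data were seen. Values of these genes stand beside the results they touch. *Slc39a8* itself ranged from 1.63 to 3.16 TPM over the 16 libraries, a level that does not bear on a missense label. For 8 of 16 libraries, those of wild-type mice 1 and 2 and A391T mice 3 and 4, the name in the deposited RPKM table was exchanged against that of the count file. The deposited counts and RPKM values alone do not show which names are right. The names of the count files are used here, and values under the names of the table are given where they change a result.

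The cortex and the cerebellum differed in which members led the summed RNA level of the family. In cortex *Hs3st4* and *Hs3st2* together made up 86.9% ± 1.31 (SD, n = 4) of the summed TPM of the 7 genes in wild-type mice and 88.7% ± 0.730 (SD, n = 4) in A391T mice. In cerebellum *Hs3st1* alone made up 79.1% ± 3.74 (SD, n = 4) and 77.9% ± 6.54 (SD, n = 4). There *Hs3st4* and *Hs3st2* together held 10.0% ± 3.90 and 9.95% ± 5.86 (SD, n = 4 each). The summed level was also higher in cortex, at 220 ± 12.6 TPM in wild-type and 212 ± 7.52 TPM in A391T mice, than in cerebellum, at 67.3 ± 4.34 and 65.7 ± 11.0 TPM (SD, n = 4 each). These values rest on the gene lengths of the table. The exon lengths of the GENCODE M1 annotation gave an alternative, chosen after the data were seen. With them *Hs3st4* and *Hs3st2* together held 81.8% in wild-type and 84.4% in A391T cortex. In cerebellum that pair then held 6.54% and 6.55%, and *Hs3st1* held 84.8% and 83.8%, in the same order of genotypes. The mean level of *Hs3st1* was then 31.6 and 24.0 TPM in cortex and 87.9 and 84.5 TPM in cerebellum, over 1.5 times its level with the lengths of the table. The summed level of the family thus rose more in cerebellum than in cortex. It stayed higher in cortex, by a smaller ratio. In whole tissue, fewer cells of a type and less RNA per cell cannot be told apart.

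**Figure D2:**
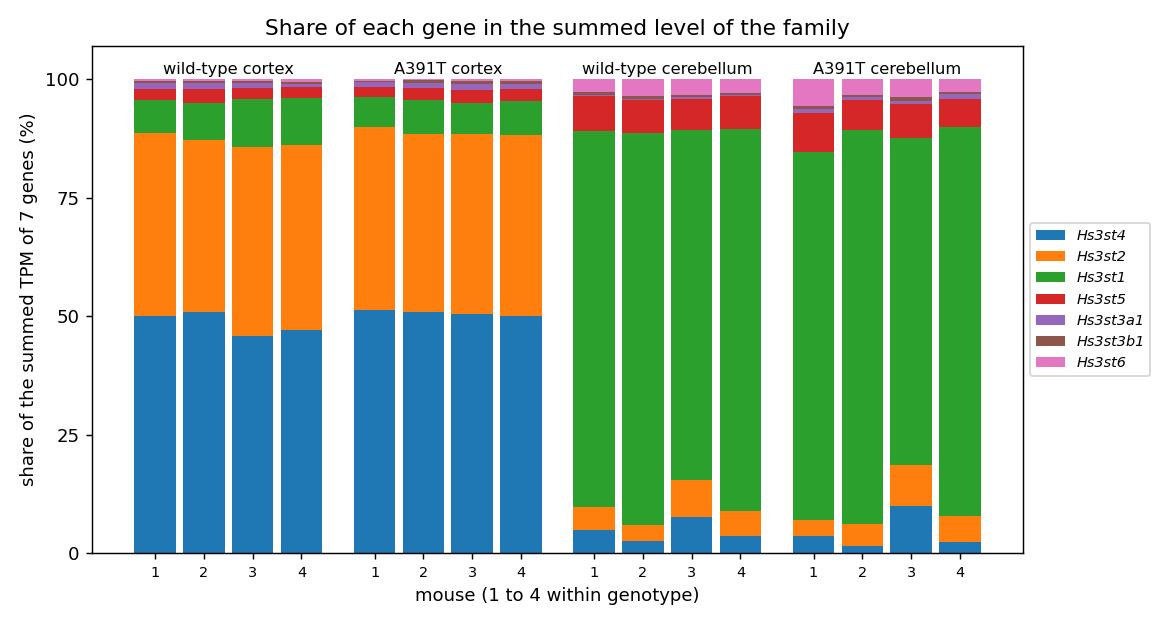
Share of each gene in the summed TPM of the 7 genes (%, vertical axis) in each of the 16 libraries, by group and mouse. *Hs3st4* and *Hs3st2* fill 85.7% to 89.8% of every cortex bar, and *Hs3st1* fills 68.8% to 83.2% of every cerebellum bar.

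Of the 7 members, 6 did not overlap between the 8 cortex and the 8 cerebellum libraries, against 39.8% of the 20572 genes with a mean of at least 1 count. *Hs3st5* was the member that overlapped. Differences between regions were tested on counts with edgeR's quasi-likelihood test within each genotype, and calls needed both an adjusted p under 0.05 and at least a 2-fold change. In wild-type mice 6 of 7 members were called, 2 higher and 4 lower in cerebellum, against 24.7% of 16040 genes tested (10.5% higher, 14.2% lower). In A391T mice 6 of 7 were called in the same directions, against 24.7% of 16005 genes (9.8% higher, 14.9% lower). The median log2 fold change of the 7, cerebellum over cortex, was -1.89 in wild-type and -1.61 in A391T mice, beside 0.02 and 0.03 over all genes tested.

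**Figure D3:**
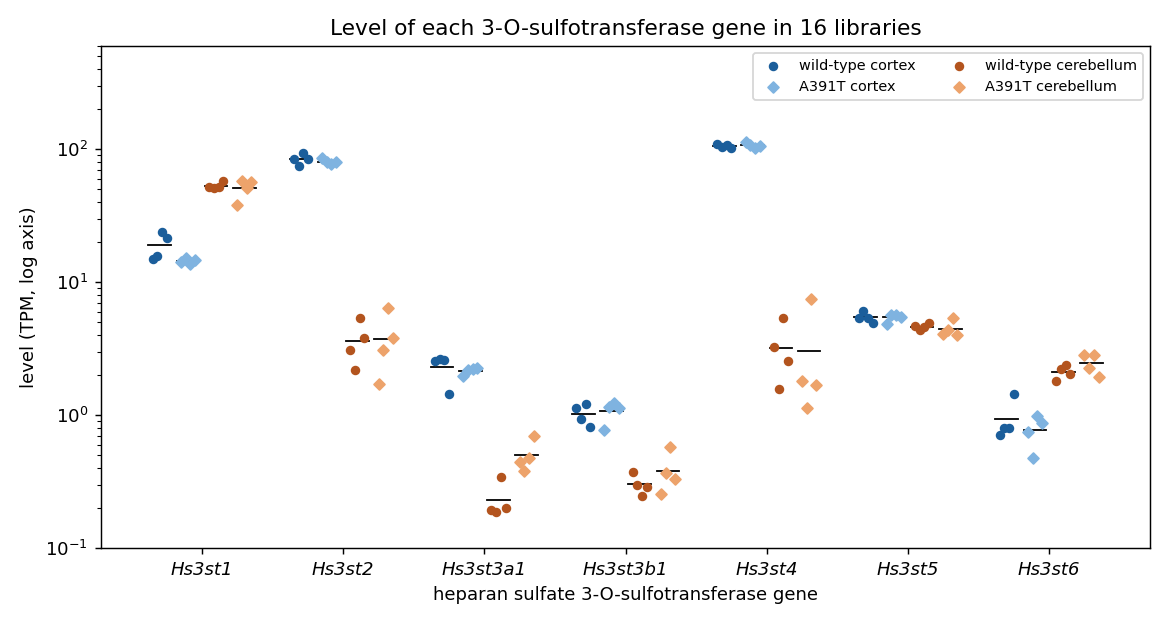
Level of each gene in TPM (logarithmic vertical axis) in the 16 libraries, with circles for wild-type and diamonds for A391T mice, blue for cortex and brown for cerebellum, and a bar at each group mean of 4 libraries. *Hs3st2* and *Hs3st4* lie between 74.6 and 114 TPM in cortex and between 1.13 and 7.48 TPM in cerebellum, while *Hs3st1* is higher in cerebellum.

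*Hs3st4* had the highest level of the family in cortex and the largest difference between regions. Its level in the wild-type cortex libraries was 110 TPM in mouse 1, 105 TPM in mouse 2, 108 TPM in mouse 3 and 102 TPM in mouse 4. In A391T cortex it was 114, 109, 103 and 105 TPM in mice 1 to 4. In wild-type cerebellum it was 3.27, 1.58, 5.40 and 2.58 TPM, and in A391T cerebellum 1.80, 1.13, 7.48 and 1.68 TPM, in the same order of mice. All 8 cortex libraries lay within 1.11-fold of each other, whereas the cerebellum libraries spanned 6.64-fold. The log2 fold change was -5.20 (SE 0.23, adjusted p = 4.3e-09) in wild-type and -5.28 (SE 0.45, adjusted p = 3.9e-06) in A391T mice, differences of 36.8-fold and 38.9-fold. Without the cerebellum library of A391T mouse 3 the latter was -6.20, and under the names of the RPKM table it was -5.92.

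*Hs3st2*, which like *Hs3st4* makes the glycoprotein D type of product (gD-type), was the next highest in cortex. Its level was 84.4, 74.6, 94.4 and 85.2 TPM in the wild-type cortex libraries and 85.6, 80.2, 77.4 and 80.3 TPM in the A391T cortex libraries. In cerebellum it was 3.12, 2.19, 5.37 and 3.80 TPM in wild-type and 1.72, 3.10, 6.40 and 3.84 TPM in A391T mice. The regions were far apart in every mouse. Cerebellum differed from cortex by a log2 fold change of -4.70 (SE 0.18, adjusted p = 1.7e-09) in wild-type and -4.56 (SE 0.27, adjusted p = 2.6e-07) in A391T mice, or 26.0-fold and 23.5-fold. With only the A391T mice whose names match in both sources the latter was -5.18.

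*Hs3st3a1* and *Hs3st3b1*, the pair on chromosome 11 that is near-identical in the aligned part of its coding sequences, were low in both regions and lower in cerebellum. *Hs3st3a1* had 2.56, 2.66, 2.60 and 1.44 TPM in wild-type cortex and 1.98, 2.19, 2.22 and 2.27 TPM in A391T cortex. In cerebellum it had 0.194, 0.188, 0.345 and 0.201 TPM in wild-type and 0.443, 0.380, 0.481 and 0.700 TPM in A391T mice, from only 5 to 17 counts a library. The log2 fold change between regions was -3.45 (SE 0.29, adjusted p = 9.0e-07) in wild-type and -2.21 (SE 0.19, adjusted p = 3.8e-06) in A391T mice. Under the names of the RPKM table these values were -2.45 and -3.02, so their order between genotypes turned round with the names.

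*Hs3st3b1* had from 0.779 to 1.25 TPM in the 8 cortex libraries, with a median of 1.13, and from 0.246 to 0.579 TPM in the 8 cerebellum libraries, with a median of 0.316. These levels rest on 24 to 45 counts in cortex and 8 to 18 in cerebellum. The log2 fold change was -1.89 (SE 0.22, adjusted p = 1.8e-05) in wild-type and -1.61 (SE 0.25, adjusted p = 0.00031) in A391T mice. Neither gene of the pair reached a mean of 3 TPM in any group. Their reads in the identical run were not counted for either.

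*Hs3st1*, the enzyme best known for the antithrombin-binding site, ran the other way. Its level was 51.8, 51.2, 51.7 and 57.7 TPM in wild-type cerebellum and 38.4, 57.6, 51.1 and 57.3 TPM in A391T cerebellum. In cortex it was 15.1, 15.9, 23.8 and 21.6 TPM in wild-type and 14.2, 15.3, 13.6 and 14.8 TPM in A391T mice. Every cerebellum library lay above every cortex library. On the log2 scale cerebellum exceeded cortex by 1.33 (SE 0.13, adjusted p = 3.5e-06) in wild-type and 1.71 (SE 0.11, adjusted p = 3.9e-07) in A391T mice, or 2.51-fold and 3.26-fold. Without the cerebellum library of A391T mouse 1, the lowest, the latter was 1.80. All 4 tested choroid plexus markers were also higher in cerebellum. In both cerebellum libraries where *Ttr*, the main choroid plexus transcript, was at 26.7 and 28.7 TPM against 2316 to 7939 TPM in the other 6, *Hs3st1* stood at 51.7 and 57.3 TPM, within the 38.4 to 57.7 TPM of those 6.

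*Hs3st5*, which can serve both kinds of product, was the member that differed least between regions. It had from 4.89 to 6.10 TPM in the cortex libraries, with a median of 5.48, and from 4.04 to 5.42 TPM in the cerebellum libraries, with a median of 4.49. The log2 fold change was -0.39 in both genotypes (SE 0.10 and 0.11, adjusted p = 0.0040 and 0.013), under the 2-fold criterion. By adjusted p alone 67.8% and 62.8% of the genes tested passed in the respective genotypes. The libraries agreed closely, within 1.25-fold in cortex and 1.34-fold in cerebellum.

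*Hs3st6*, a gD-type enzyme, was low in both regions and higher in cerebellum. It had 0.711, 0.809, 0.803 and 1.44 TPM in wild-type cortex and 0.745, 0.474, 0.994 and 0.873 TPM in A391T cortex, from 6 to 16 counts a library. In cerebellum it had from 1.82 to 2.83 TPM, from 22 to 42 counts. Its log2 fold change was 1.03 (SE 0.25, adjusted p = 0.0034) in wild-type and 1.57 (SE 0.26, adjusted p = 0.00043) in A391T mice. In wild-type mice it sat at the 2-fold criterion. Without 1 wild-type library in turn it ranged from 0.93 to 1.29, and it fell under a log2 change of 1 without the cortex library of mouse 1 (0.93), 2 (0.95) or 3 (0.96) or the cerebellum library of mouse 3 (0.97).

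**Figure D4:**
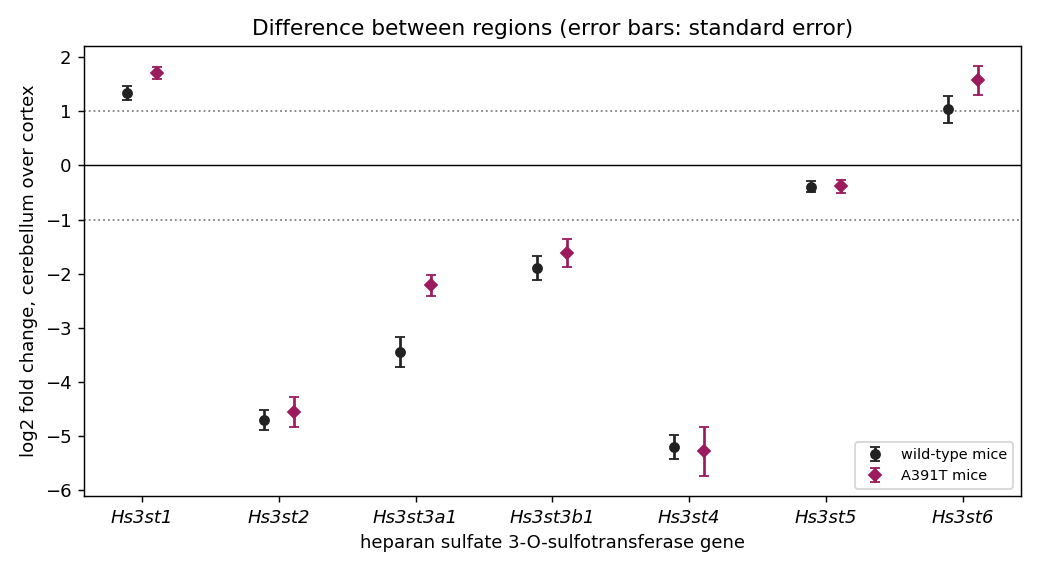
Log2 fold change of cerebellum over cortex (vertical axis) for each gene in wild-type (circles) and A391T mice (diamonds), with standard errors of the edgeR fit and dotted lines at a 2-fold change. *Hs3st1* and *Hs3st6* lie above 1, *Hs3st5* lies at -0.39 in both genotypes, and *Hs3st4* lies lowest at -5.20 and -5.28.

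The order of the levels per length was then compared within each library. In cortex the order of mean TPM was *Hs3st4*, *Hs3st2*, *Hs3st1*, *Hs3st5*, *Hs3st3a1*, *Hs3st3b1* and *Hs3st6*. All but the last neighbours in this order differed in the same direction in 8 of 8 libraries, with adjusted p = 0.013 in exact sign-flip tests (two-sided, on log2 ratios) adjusted over 12 pairs. The ratio was 1.29-fold for *Hs3st4* over *Hs3st2*, 5.01-fold for *Hs3st2* over *Hs3st1* and 3.02-fold for *Hs3st1* over *Hs3st5*. *Hs3st3b1* exceeded *Hs3st6* in 7 of 8 libraries (adjusted p = 0.19, exact sign-flip test). In cerebellum the order was *Hs3st1*, *Hs3st5*, *Hs3st2*, *Hs3st4*, *Hs3st6*, *Hs3st3a1* and *Hs3st3b1*. There *Hs3st1* exceeded *Hs3st5* by 11.4-fold and *Hs3st6* exceeded *Hs3st3a1* by 6.84-fold, both in 8 of 8 libraries (adjusted p = 0.013, exact sign-flip test). The other 4 neighbours did not differ beyond their spread, with adjusted p from 0.11 to 0.99 in the same exact test. The smallest p that 8 libraries allow is 0.0078 before adjustment. Gene length enters these ratios. The table gives *Hs3st1*, *Hs3st5* and *Hs3st6* lengths of 3690, 5128 and 1849 bases, where exons of the GENCODE M1 annotation span 2230, 4340 and 1357 bases. With the annotated lengths the ratio of *Hs3st2* over *Hs3st1* in cortex fell to 3.02-fold. *Hs3st5* then exceeded *Hs3st2* in cerebellum in 8 of 8 libraries, by 1.58-fold (adjusted p = 0.013, exact sign-flip test), where with the lengths of the table it did so in 6 of 8. *Hs3st6* moved above *Hs3st3b1* in cortex and above *Hs3st4* in cerebellum, in both places by less than the spread.

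Between genotypes no member was called. In cortex 6 members were tested, and the log2 fold changes of A391T over wild-type were -0.41 for *Hs3st1* (SE 0.14), -0.09 for *Hs3st2* (SE 0.07), -0.12 for *Hs3st3a1* (SE 0.18), 0.06 for *Hs3st3b1* (SE 0.19), -0.0024 for *Hs3st4* (SE 0.06) and -0.03 for *Hs3st5* (SE 0.09). Adjusted p-values ran from 0.987 to 1.00, and 1 of 15815 genes tested, or 0.00632%, was called. In cerebellum the values were -0.01 for *Hs3st1* (SE 0.10), 0.09 for *Hs3st2* (SE 0.36), 0.37 for *Hs3st3b1* (SE 0.29), -0.05 for *Hs3st4* (SE 0.58), -0.0022 for *Hs3st5* (SE 0.11) and 0.28 for *Hs3st6* (SE 0.20). There edgeR's quasi-likelihood test called 0 of 15668 genes (0%), with 1340 at an unadjusted p under 0.05, and DESeq2 called 10 and edgeR's exact test 8 genes, none of them a member. *Hs3st6* in cortex and *Hs3st3a1* in cerebellum were below the count filter. With every gene that had a count, *Hs3st3a1* had a log2 fold change of 1.14 in cerebellum (SE 0.34, adjusted p = 0.64). Its direction depends on the library names. Under the names of the RPKM table it was again below the filter, with 0.443, 0.380, 0.194 and 0.188 TPM in the libraries named A391T and 0.481, 0.700, 0.345 and 0.201 TPM in those named wild-type. Under those names and without both cerebellum libraries highest in *Hs3st4*, where it passed the filter, its log2 fold change was -0.47 (SE 0.60, adjusted p = 0.86). Signs of the small values depend on the library names. Under the names of the RPKM table, where both cerebellum libraries highest in *Hs3st2* and *Hs3st4* are wild-type, *Hs3st2* was at -0.89 and *Hs3st4* at -1.08 in cerebellum, and with only the mice whose names match in both sources *Hs3st4* was at -1.30, none of them called.

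The region difference itself was compared between genotypes by the interaction term over all 16 libraries. No member was called among 16589 genes tested (0% called, with 805 at an unadjusted p under 0.05; DESeq2 called 0 too). The value for *Hs3st3a1* was 1.25 on the log2 scale (SE 0.36, adjusted p = 0.77) and that for *Hs3st1* was 0.39 (SE 0.18, adjusted p = 0.77). The remaining members had -0.07 for *Hs3st4* (SE 0.52), 0.02 for *Hs3st5* (SE 0.14), 0.16 for *Hs3st2* (SE 0.34), 0.29 for *Hs3st3b1* (SE 0.35) and 0.55 for *Hs3st6* (SE 0.37). With the names of the RPKM table the interaction of *Hs3st3a1* was -0.55, of *Hs3st2* -0.84 and of *Hs3st4* -1.15. With only the mice whose names match it was -1.37 for *Hs3st4* and 1.22 for *Hs3st6*.

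Within the cerebellum, *Hs3st2* and *Hs3st4* were both highest in the same pair of libraries, those of wild-type mouse 3 and A391T mouse 3. Under the names of the RPKM table both of these libraries are wild-type. *Hs3st4* had 5.40 and 7.48 TPM there and from 1.13 to 3.27 TPM in the other 6. *Hs3st2* had 5.37 and 6.40 TPM there and from 1.72 to 3.84 TPM in the other 6. The remaining 5 members did not stand above the other 6 libraries in both, and of the 20572 genes with a mean of at least 1 count, 5.03% did. Of 6 genes of the midbrain and thalamus chosen after the data were seen, all 6 were higher in both libraries. Because of that choice this count is not a test, and it cannot be set against the counts of the marker lists below. *Tfap2d*, a transcription factor of the dorsal midbrain, had 5.28 and 5.93 TPM against 0 to 0.0770 TPM in the other 6. *Slc17a6*, the vesicular glutamate transporter of subcortical neurons, had 47.9 and 70.7 TPM against 14.5 to 26.5 TPM, and *Tcf7l2* had 16.9 and 20.03 TPM against 2.07 to 2.63 TPM. The cortex projection neuron markers *Tbr1*, at 0.690 and 0.634 TPM against 0.540 to 0.894 TPM, and *Emx1*, at 0.208 and 0.145 TPM against 0.114 to 0.343 TPM, lay within the range of the other 6. Of 3 upper-layer markers 1 was higher in both, *Rasgrf2* at 6.87 and 8.00 TPM against 1.69 to 3.66 TPM, and of 7 layer 6 markers 1, *Foxp2* at 6.04 and 6.96 TPM against 3.06 to 3.86 TPM. Of 5 striatum markers, *Drd2* (10.7 and 10.3 TPM against 1.13 to 2.74 TPM) and *Gpr6* were higher in both. The part of these other tissues in the levels of *Hs3st2* and *Hs3st4* was not tested. With both libraries left out, the genotype difference in cerebellum was -0.03 for *Hs3st2* in place of 0.09 and -0.61 for *Hs3st4* in place of -0.05. The interaction of *Hs3st4* was then -0.61 in place of -0.07.

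**Figure D5:**
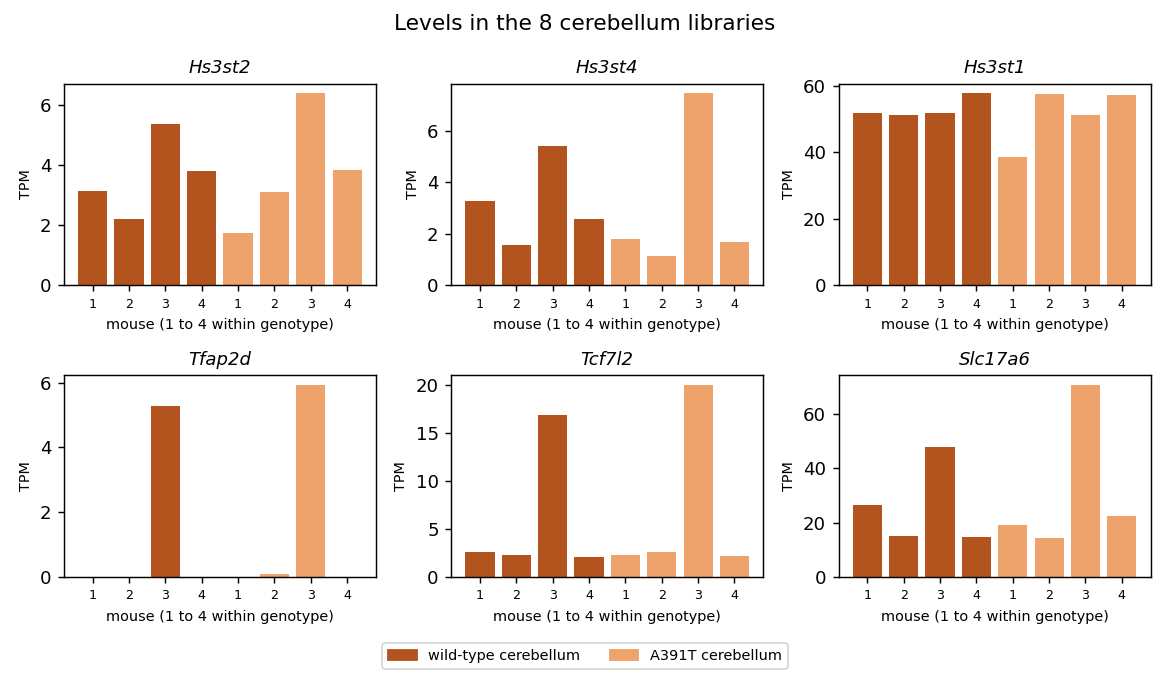
Level in TPM (vertical axes, each from 0) of *Hs3st2*, *Hs3st4*, *Hs3st1* and of 3 midbrain and thalamus genes in the 8 cerebellum libraries, by mouse, with dark bars for wild-type and light bars for A391T mice. Wild-type mouse 3 and A391T mouse 3 have the highest bars of *Hs3st2* and *Hs3st4* and are the libraries with 5.28 and 5.93 TPM of *Tfap2d*, while their *Hs3st1* lies at 51.7 and 51.1 TPM.

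Within the cortex, *Hs3st1* stood higher in wild-type mice 3 and 4, at 23.8 and 21.6 TPM, than in the other 6 libraries of both genotypes, at 13.6 to 15.9 TPM. Of all genes with a mean of at least 1 count, 5.96% lay above the other 6 in both. Of 7 layer 6 markers 2 were below the other 6 libraries in both, and the other 5 were not. The 2 were *Ntsr1*, at 5.98 and 4.64 TPM against 8.61 to 11.6 TPM, and *Rprm*, at 151 and 153 TPM against 184 to 243 TPM. *Cplx3*, among the other 5, was at 35.2 and 24.3 TPM against 28.3 to 32.4 TPM. The other 6 members and the projection neuron markers *Tbr1*, *Emx1* and *Neurod6* did not lie outside the other libraries in both. The genotype difference of *Hs3st1* in cortex, -0.41, was -0.31 without wild-type mouse 3, -0.33 without wild-type mouse 4 and -0.51 and -0.50 without wild-type mouse 1 or 2. It was -0.29 under the names of the RPKM table and -0.65 with only the mice whose names match. The part of the composition of the tissue piece in this difference was not tested.

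For each member with a mean of at least 1 CPM (counts scaled to the library total), the genes with the most similar profile were taken as those with the smallest root-mean-square difference of centred log2 CPM over the 16 libraries, among 16588 genes. For *Hs3st4* they were *Kcnip2* (0.285), a potassium channel subunit, *Emx2os* (0.287) and *Bcl11b* (0.300), a transcription factor of deep-layer projection neurons. For *Hs3st2* they were *Gpr83* (0.162), *Ngef* (0.218) and *Cobl* (0.222). *Hs3st1* was nearest to *Csdc2* (0.151), *Ccdc45* (0.162) and *Cited2* (0.171), and *Hs3st5* to *Caskin2* (0.0811), *Mtap7* (0.0838) and *Fam102a* (0.0902). For *Hs3st3a1* the nearest genes were *Acot3* (0.298), *C130074G19Rik* (0.348) and *Gsg1l* (0.360). All distances are to be read against the spread of the member's own profile. That spread was 0.215 for *Hs3st5*, 0.795 for *Hs3st1*, 1.35 for *Hs3st3a1*, 2.37 for *Hs3st2* and 2.78 for *Hs3st4*.

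The other genes of heparan sulfate were taken from a list of 50 genes of linkage, chain growth, sulfation, cleavage, sulfate supply, core proteins and binding partners, of which 48 were tested. In wild-type mice 8 were higher and 12 lower in cerebellum, beside 10.5% and 14.2% of all genes tested, and the median log2 fold change of the 48 was -0.07. In A391T mice 6 were higher and 11 lower, beside 9.8% and 14.9% of all genes tested, and the median of the 48 was -0.05. Among the enzymes that act before 3-O-sulfation, 1 of 5 N-sulfation and epimerase genes was higher and 0 lower, and of 4 2-O and 6-O sulfation genes 0 were higher and 1 lower in wild-type mice. Of 5 chain polymerase genes 1 was lower and of 6 linkage genes 1 was lower. Of 13 core proteins 3 were higher and 4 lower, of 8 tested partners 3 were higher and 2 lower, and of 4 sulfate supply genes 1 was lower. All 3 tested sulfatase and heparanase genes were called, *Sulf1*, which like *Sulf2* removes 6-O-sulfate outside the cell, as higher (log2 1.21, SE 0.10) and *Hpse* and *Sulf2* as lower. In A391T mice *Sulf1* was at 0.68 (SE 0.15) and not called. The 3 genes most in favour of cortex in wild-type mice were *Hpse*, *Extl1* and *Sulf2*. *Hpse*, the heparanase that cuts the chain, was at -3.18 (SE 0.28). *Extl1*, a glucosaminyltransferase of chain growth, was at -2.70 (SE 0.12), and *Sulf2*, which removes 6-O-sulfate outside the cell, at -2.18 (SE 0.09). The 3 most in favour of cerebellum in wild-type mice were the core protein *Col18a1* at 4.38 (SE 0.09), the growth factor *Fgf7* at 4.24 (SE 0.13) and the syndecan *Sdc1* at 3.73 (SE 0.15). *Col18a1* had 54.7 to 60.0 TPM in both cerebellum libraries with little *Ttr* and 54.5 to 68.5 TPM in the other 6. No listed gene was called between genotypes in either region or in the interaction.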

How the data were processed

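RNA of the cortex and cerebellum was measured in 16 libraries (4 wild-type and 4 A391T mice, 1 library per region and mouse). From polyA-selected, directional libraries the authors mapped 50-base reads with STAR to mm9, counted them per Ensembl gene with HTSeq and deposited whole-number counts without normalization or strand. From 8.41% to 12.1% of the entries of a library were not uniquely aligned, from 10.2% to 13.2% lay on no gene and from 2.20% to 2.75% were ambiguous. These entries stayed out of library sizes and tests. The authors also deposited a table of RPKM values, of which the gene lengths and names were used and the values only to compare library names.

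Counts that passed filterByExpr were scaled by TMM and tested by the quasi-likelihood method of edgeR 4.0.16 (R 4.3.3). The p-values were adjusted over the whole table by Benjamini-Hochberg, and calls needed an adjusted p under 0.05 and at least a 2-fold change. SE is the size of the log2 fold change divided by the square root of F. TPM was computed from counts and the lengths of the table. Orders were tested with exact sign-flip tests over all sign patterns, computed with numpy 2.4.6. The fits were also run on simulated counts with a single fixed dispersion and changes only in well-counted genes. That run cannot speak for *Hs3st3a1*, *Hs3st3b1* and *Hs3st6*, which have few counts. The alternatives were DESeq2 1.42.0, edgeR's exact test, other scalings and filters, mouse as a block, the names of the RPKM table, only mice whose names match, and each library left out. Nothing in the labels says that libraries of a group were prepared separately beyond coming from different mice, and p-values measure the spread between them. Cortex and cerebellum of one number came from the same mouse, which pairs the regions by design. Deviations from group means correlated across genes from -0.215 to 0.281 (wild-type) and from -0.195 to 0.145 (A391T) between the regions of one mouse. Between regions of different mice they correlated from -0.313 to 0.286 and from -0.195 to 0.198, so regions of one mouse were no more alike. All 16 libraries were used. Counting error alone sets a limit of 3 counts where a count is 0, and libraries of a group differed by more than counting error.

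The members and gene lists were chosen with earlier results of these data known. The text names all 7 members in each comparison, the 3 listed genes of heparan sulfate with the largest log2 fold change in each direction among those called in wild-type mice, and the 3 genes closest to each member with at least 1 CPM on average. Promoters are those of RefSeq, GRCm38.p6, and exons those of GENCODE M1, aligned with Biopython 1.88. No protein sequence was used here.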

Additional observations from a re-analysis of the deposited data

Results flagged for a closer look

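Each of the 28 sets of 4 libraries (7 genes in 4 groups) was examined for 1 library far from the other 3 by Dixon's ratio, which chance passes in about 5% of sets. It was passed in 5 sets. *Hs3st1* was at 57.7 TPM in the cerebellum of wild-type mouse 4 and at 51.2 to 51.8 TPM in the other 3. *Hs3st3a1* was at 1.44 TPM in the cortex of wild-type mouse 4 against 2.56 to 2.66 TPM, and at 0.345 TPM in the cerebellum of wild-type mouse 3 against 0.188 to 0.201 TPM, the latter from 9 counts against 5 in each of the others. *Hs3st4* was at 7.48 TPM in the cerebellum of A391T mouse 3 against 1.13 to 1.80 TPM. *Hs3st6* was at 1.44 TPM in the cortex of wild-type mouse 4 against 0.711 to 0.809 TPM, from 16 counts against 9 to 12.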

How the results depend on the processing

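Between regions the 7 members kept their direction under every alternative run in both genotypes. The number called was 5 to 7 in both genotypes. It was 7 by adjusted p alone, where *Hs3st5* is added, and 5 where *Hs3st6* is lost or not tested. In wild-type mice *Hs3st6* was not called by a test against a 2-fold change (1.03, adjusted p = 0.86), with only the mice whose names match (0.81, adjusted p = 0.14) or without 1 of 4 libraries, and over its alternatives the adjusted p ran from 0.00050 to 0.86. The cause was not tested. With library totals in place of TMM the median log2 fold change of all genes was 0.14 in place of 0.02 in wild-type and 0.16 in place of 0.03 in A391T mice. With mouse as a replicate block 6 of 7 members were called in each genotype, as without it, and the block changed no call of a member. Over all genes it moved the number called from 3955 to 3958 in wild-type and from 3949 to 3932 in A391T mice.

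The order test passed for 0 pairs in cortex and 0 in cerebellum with wild-type libraries alone, where 4 libraries allow no p under 0.125, in place of 5 and 2. With annotated lengths it passed for 5 and 3. Over all alternatives run 17 of 196 values of a mean level and 18 of 168 of a mean share moved by more than 1 SD between libraries, 12 and 15 of them with annotated lengths.

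Between genotypes, and in the interaction, 0 members were called under every alternative run. The sign of small values turned. In cortex *Hs3st4* was 0.00087 with library totals and 0.0019 with all 16 libraries in one model. Under the names of the RPKM table cortex gave 0.13 for *Hs3st3a1*, -0.15 for *Hs3st3b1*, 0.052 for *Hs3st4* and 0.034 for *Hs3st5*, and cerebellum -0.89 for *Hs3st2* and -0.10 for *Hs3st3b1*. With only matching mice cortex gave 0.024 for *Hs3st3a1*, -0.084 for *Hs3st3b1*, 0.050 for *Hs3st4* and 0.0068 for *Hs3st5*, and cerebellum -0.83 for *Hs3st2*. The interaction was -0.84 for *Hs3st2*, -0.55 for *Hs3st3a1* and -0.10 for *Hs3st5* under the names of the table, -0.83, -0.54 and -0.089 with the replicate block added, and -0.71 for *Hs3st2* and -0.084 for *Hs3st5* with only matching mice. Without both cerebellum libraries highest in *Hs3st4*, a choice made after the data were seen, the cerebellum gave -0.033 for *Hs3st2* and the interaction -0.050 for *Hs3st3b1* and -0.083 for *Hs3st5*. The same under the names of the table gave -0.54 for *Hs3st2* and 0.027 for *Hs3st5*.

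With 1 library left out in turn, the cortex values ran from -0.0093 to 0.18 for *Hs3st3b1*, -0.035 to 0.026 for *Hs3st4* and -0.065 to 0.018 for *Hs3st5*. The cerebellum values ran from -0.061 to 0.073 for *Hs3st1*, -0.29 to 0.33 for *Hs3st2*, -0.99 to 0.31 for *Hs3st4* and -0.10 to 0.054 for *Hs3st5*. The interaction ran from -0.21 to 0.41 for *Hs3st2*, -0.98 to 0.31 for *Hs3st4* and -0.072 to 0.072 for *Hs3st5*.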
